A study of Danio rerio with 7 samples.

Results

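Semaphorins, their plexin receptors and the neuropilin co-receptors were followed in bulk RNA-seq of single zebrafish hindbrains dissected at 24 hpf. Genes were taken as members when the gene name of their Ensembl ID began with sema and a digit, with plxn, or with nrp1 or nrp2. This gave 47 IDs of 32189 in the count table, namely 30 semaphorins, 13 plexins and 4 neuropilins. A symbol was known for 26350 IDs, so a family member among the unnamed IDs would have been missed. Embryos that were homozygous mutant for fgf20a, which encodes a secreted growth factor, gave the 3 Fgf20aHOM libraries, and the 4 Cnt libraries were made from wild-type LondonAB embryos, with all fish raised at 28.5 °C. The mutants were bred from homozygous parents, so mutant line and genotype cannot be told apart. The labels describe the tissue as hindbrain plus its surroundings, whereas each dissection was checked by qPCR before sequencing. Each replicate is a single embryo, and a bulk level cannot separate fewer expressing cells from less RNA per cell.

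Semaphorins are guidance cues, most of them repulsive. Class 3 semaphorins are secreted, classes 4, 5 and 6 span the membrane and class 7 is held by a lipid anchor. Plexins are the signalling receptors, and most class 3 semaphorins need a neuropilin as the ligand-binding partner of an A plexin. Class 4 ligands bind mainly B plexins, whereas class 6 ligands bind A plexins directly. In the zebrafish hindbrain, boundary cells repel the neurons that make Fgf20 through semaphorins, which keeps these neurons at segment centres, and the comparison asks whether loss of Fgf20a is accompanied by altered levels of this ligand and receptor set.

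The libraries held 52900433 to 55915518 counts in Fgf20aHOM and 59800936 to 69801072 in Cnt. The members took 0.0804 to 0.112% of them in Fgf20aHOM and 0.0377 to 0.0848% in Cnt. The lowest share belonged to Cnt 4, which was the lowest Cnt library for 25 of the 46 tested members (54.3%), against 30.9% of all genes tested. Cnt 4 therefore stood apart from the other Cnt libraries for this gene set, and counts are also given without it. Fgf20aHOM F2 was the highest of the 7 libraries for 17 members (37.0%), against 20.6% of all genes tested.

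The plot of fold changes covers the 46 members that passed the filter on low counts. The median log2 fold change of Fgf20aHOM over Cnt was 0.60, against -0.05 over all 19589 genes tested, and 35 of 46 members had a value above 0, against 47.3% of all genes. A median above 0 was not particular to the members. It was 0.51 for the 10 matched hindbrain markers (9 above 0) and 0.42 for the 5 matched cranial ganglia markers (5 above 0). Other marker lists went the other way, with -0.32 for boundary and -1.22 for otic vesicle markers. No member met the limits of the study (adjusted p of at most 0.01, fold change of at least 2 and a normalised count above 30), which 0.439% of all genes met. With an adjusted p of at most 0.05 in the edgeR quasi-likelihood test, PLXNA3 and plxnb2a.2 were higher, against 0.638% of all genes. plxnb2a.2 passed the filter on low counts only through Fgf20aHOM, with no Cnt library at the filter's level, so it could pass only by being high there, and its p is given as a description. Among the 45 other tested members, 1 was higher at this limit (PLXNA3), 9 were higher at an unadjusted p under 0.05, 10 lay above Cnt in all libraries and the median log2 fold change was 0.60. At an unadjusted p under 0.05, 10 members were higher and 1 was lower, against 8.44% and 7.21% of all genes. All Fgf20aHOM libraries lay above all Cnt libraries for 11 members and below them for 1, against 9.46% and 8.03% of all genes. With Cnt 4 left out, the median was 0.43, the same 11 members lay above and 3 lay below, against 11.8% and 9.65% of all genes in that fit, and 9 were higher at an unadjusted p under 0.05, against 8.09%. With 1 surrogate variable in the fit the median was 0.37. Leaving out Cnt 1, Cnt 3 or any 1 Fgf20aHOM library left neither PLXNA3 nor plxnb2a.2 with an adjusted p of at most 0.05, leaving out Cnt 2 left PLXNA3 only, and leaving out Cnt 4 left plxnb2a.2 only (edgeR quasi-likelihood test). DESeq2 with the same limits called 2 members, again PLXNA3 and plxnb2a.2, both higher, against 1.25% of all genes, and gave 5 members an adjusted p of at most 0.05, against 6.64% of all genes.

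**Figure D1:**
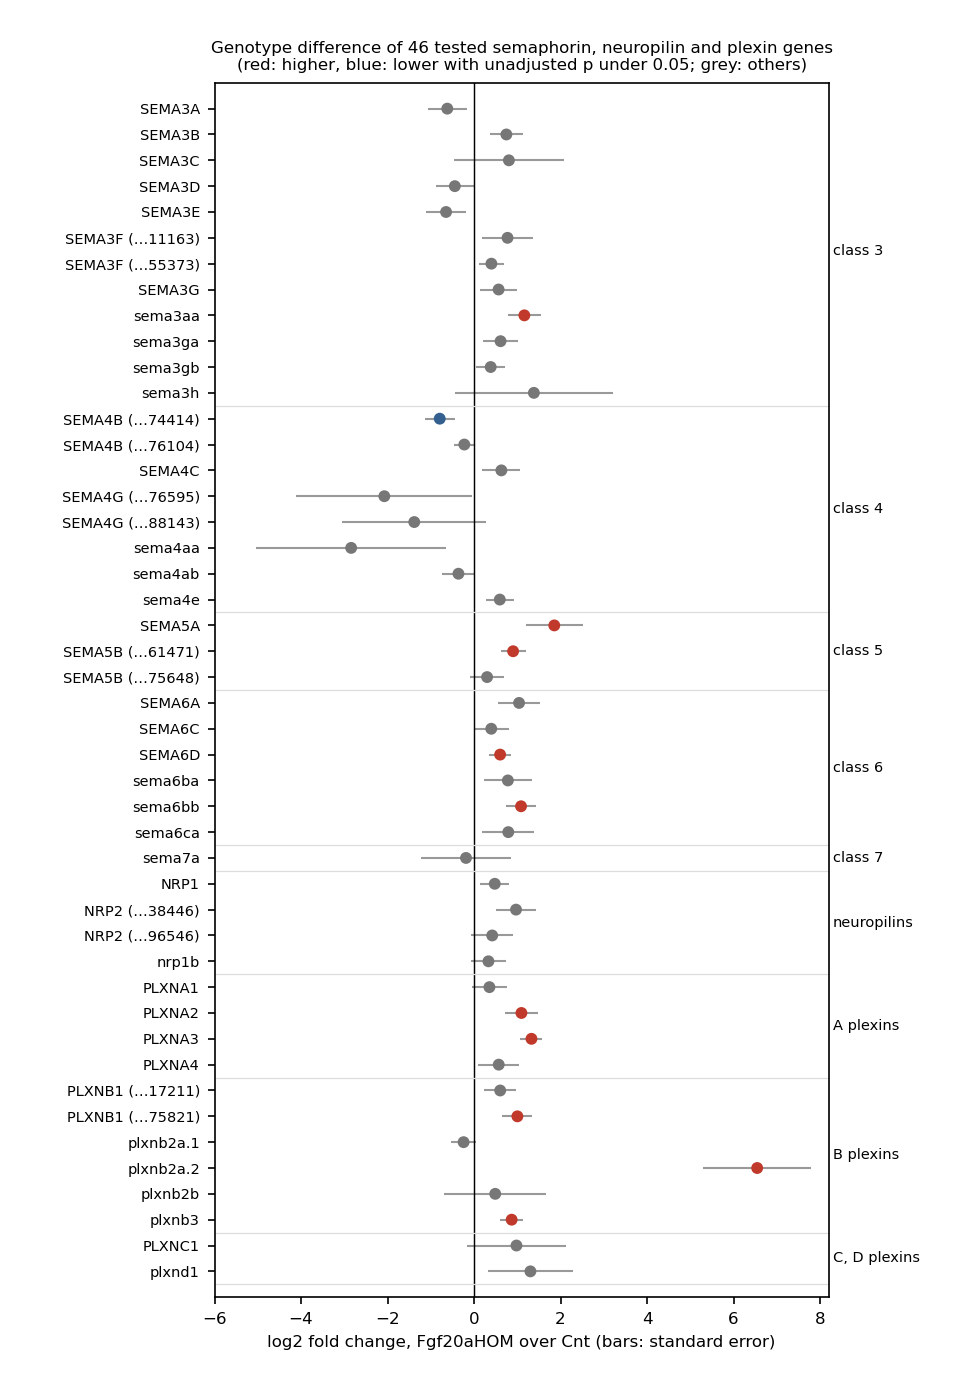
Log2 fold change of Fgf20aHOM over Cnt (x axis) with its standard error for the 46 tested members, grouped by role from top to bottom. Red and blue points have an unadjusted p under 0.05, higher and lower; 35 of 46 points lie right of 0, and plxnb2a.2 stands apart at 6.55.

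All 4 A plexins had fold changes above 0, and for PLXNA3 and PLXNA2 the genotypes were apart in every library. PLXNA3 (ENSDARG00000007172), known in zebrafish for guiding motor axons, had 3671, 2878 and 2373 normalised counts in the libraries Fgf20aHOM F2 to F4, against 1289, 1451, 943 and 1057 in Cnt 1 to 4. The groups did not overlap, and the means were 2974 ± 654 in Fgf20aHOM (SD, n = 3) and 1185 ± 228 in Cnt (SD, n = 4). The edgeR quasi-likelihood test gave a log2 fold change of 1.33 ± 0.25 (SE, as for all fold changes below) and an adjusted p of 0.0356, against 2.2e-04 in DESeq2. Over the 16 fits tried, its log2 fold change stayed between 1.15 and 1.47, while its adjusted p was at most 0.05 in 9 of them (edgeR, DESeq2 and limma-voom together).

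PLXNA2 (ENSDARG00000060372), another receptor for class 3 and class 6 ligands, had 802, 624 and 731 normalised counts in Fgf20aHOM, against 226, 440, 464 and 216 in Cnt. The groups were apart, yet its log2 fold change of 1.10 ± 0.37 did not pass adjustment (adjusted p of 0.202, edgeR quasi-likelihood test). PLXNA1 (ENSDARG00000105452) had 1793, 1429 and 1603 in Fgf20aHOM, against 1569, 1046, 1915 and 498 in Cnt. For PLXNA1 only Cnt 4 and Cnt 2 lay below the Fgf20aHOM range, and the log2 fold change was 0.36 ± 0.40. PLXNA4 had 337 to 1531 in Fgf20aHOM and 430.5 to 884 in Cnt, so the Fgf20aHOM libraries spanned the Cnt ones. The summed A plexins came to 7231, 5268 and 6238 in Fgf20aHOM, against 3969, 3367, 4082 and 2240 in Cnt. This sum was 1.83 times as high in Fgf20aHOM with no overlap, and PLXNA3 made the largest contribution to the difference.

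Among B plexins, the receptors of class 4 semaphorins, plxnb2a.2 (ENSDARG00000077090) was close to absent in Cnt. It had 223, 186 and 255 counts in the libraries Fgf20aHOM F2 to F4, against 0, 0, 1 and 9 counts in Cnt 1 to 4, where a count of 0 allows up to 3 counts. Its normalised means were 236 ± 35 in Fgf20aHOM (SD, n = 3) and 2.42 ± 4.24 in Cnt (SD, n = 4). All Fgf20aHOM libraries were far above all Cnt libraries, and most Cnt counts came from Cnt 4. Fitted by edgeR, the log2 fold change was 6.55 ± 1.25 and the adjusted quasi-likelihood p 0.0351, against 2.7e-08 in DESeq2. From summed counts of 664 in Fgf20aHOM and 10 in Cnt, scaled for library size, the ratio was 99.1 (95% exact binomial interval 53.6 to 208, counting error only). Without Cnt 4, Cnt held 1 count and the ratio was 748 with an interval from 134 to 29590. In that fit the gene met the limits of the study (adjusted p of 0.00388, edgeR quasi-likelihood test), again through Fgf20aHOM alone.

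In the RefSeq gene order, plxnb2a.2 lies between plxnb2a.1 and plxnb2a.3, which are similar copies, so reads may be divided among them. Its neighbour plxnb2a.1 (ENSDARG00000003811) had 1663, 995 and 1495 normalised counts in Fgf20aHOM, against 1792, 1656, 1995 and 1104 in Cnt. The groups overlapped and the log2 fold change was -0.24 ± 0.29. The third copy, plxnb2a.3 (ENSDARG00000079892), was too low to be tested, with 63, 0 and 17 counts in Fgf20aHOM and 0, 0, 3 and 10 in Cnt. The difference between the means of plxnb2a.1 was within its spread between libraries, which was larger than the level of plxnb2a.2, and the division of reads among the copies was not tested.

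The other B plexins differed less. plxnb3 (ENSDARG00000032990) had 1291, 1269 and 928 normalised counts in Fgf20aHOM, against 532, 592, 716 and 705 in Cnt. The groups did not overlap, with a log2 fold change of 0.87 ± 0.27 and an adjusted p of 0.159 (edgeR quasi-likelihood test). One PLXNB1 ID (ENSDARG00000075821) had 1471, 1049 and 1579 in Fgf20aHOM, against 452, 1060, 717 and 500 in Cnt, a log2 fold change of 1.00 ± 0.35, and Cnt 2 lay within the Fgf20aHOM range. The other PLXNB1 ID (ENSDARG00000017211) had 1356, 1307 and 1021 in Fgf20aHOM, against 1263, 425, 914 and 629 in Cnt. Only Cnt 1 reached the Fgf20aHOM range there, and the log2 fold change was 0.60 ± 0.37. Summed over both IDs, PLXNB1 had 2828, 2356 and 2600 in Fgf20aHOM, against 1715, 1485, 1632 and 1129 in Cnt, with no overlap. The fit on summed IDs gave it a log2 fold change of 0.80 and an adjusted p of 0.133 (edgeR quasi-likelihood test). The sum of all B plexins was 4895 to 6234 in Fgf20aHOM and 2957 to 4415 in Cnt, with no overlap.

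PLXNC1 and plxnd1, which bind class 7 and class 3 semaphorins, were scarce. PLXNC1 (ENSDARG00000015278) had 161, 136 and 378 normalised counts in Fgf20aHOM, against 163, 121, 172 and 0 in Cnt. plxnd1 (ENSDARG00000086057), a receptor of blood vessels, had 102, 150 and 35.7 in Fgf20aHOM, against 14.1, 12.8, 112 and 15.6 in Cnt. The genotypes overlapped for both genes, with Cnt 3 inside the Fgf20aHOM range for plxnd1, and neither gene passed the test. Leaving out Cnt 3 gave plxnd1 a log2 fold change of 2.74, against 1.30 with it, and leaving out F4 gave PLXNC1 0.38, against 0.98.

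**Figure D2:**
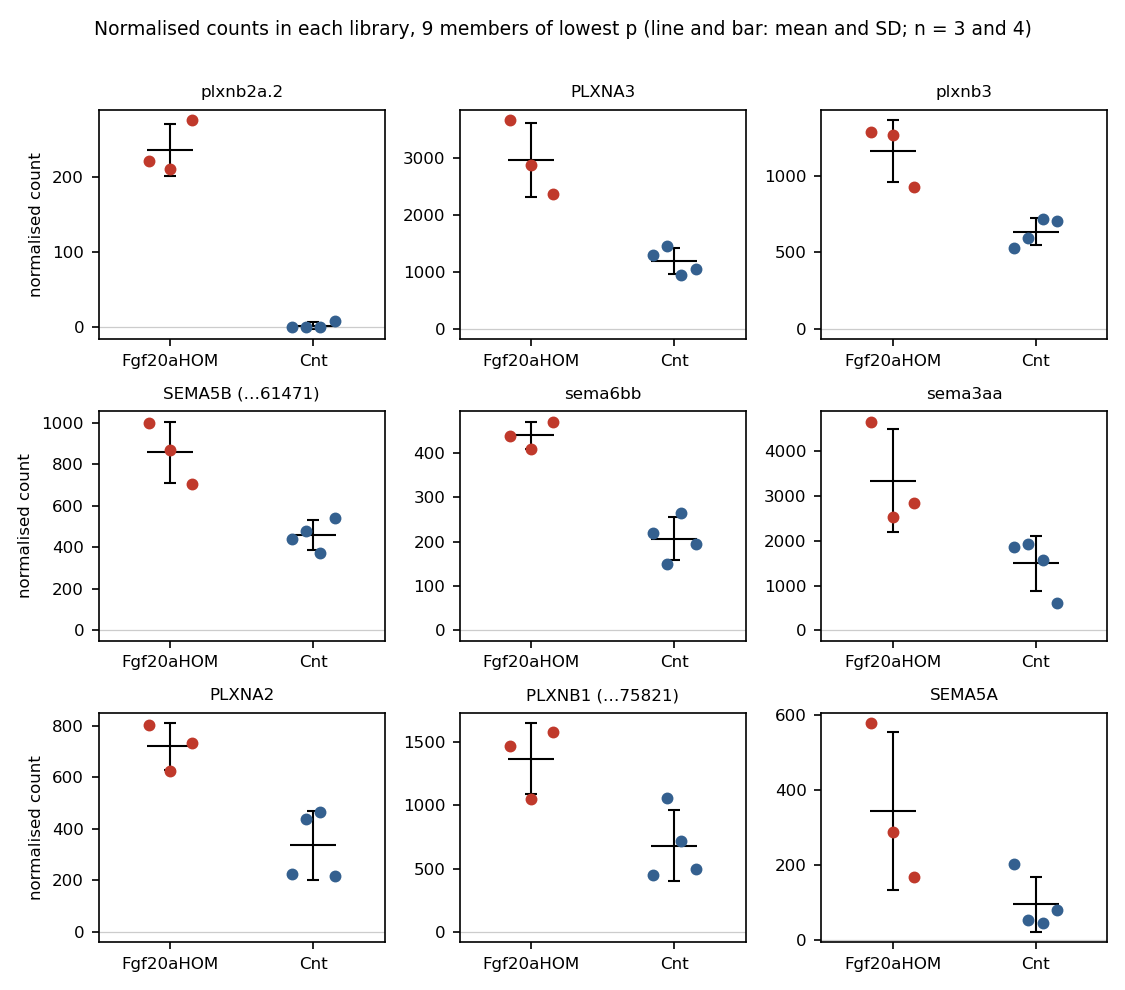
Normalised count (y axis, linear, own scale per panel) of the 9 members of lowest p in each library, Fgf20aHOM left and Cnt right, with mean and SD. The groups are apart in 7 panels, whereas PLXNB1 (ENSDARG00000075821) and SEMA5A overlap. The panels were picked for their low p, so separate groups were likely among them, and nothing is concluded from the 7.

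The genotypes overlapped for all 4 neuropilins, although each fold change was above 0. NRP1 (ENSDARG00000102153) had 2949, 1858 and 1988 normalised counts in Fgf20aHOM, against 1072, 1652, 2574 and 1203 in Cnt. nrp1b (ENSDARG00000027290) had 1213, 911 and 897 in Fgf20aHOM, against 779.5, 1203, 902 and 314 in Cnt. Cnt 3 lay within the Fgf20aHOM range for both, and the log2 fold changes were 0.48 ± 0.34 for NRP1 and 0.33 ± 0.41 for nrp1b, the second falling below 0 (-0.017) with 1 surrogate variable in the fit.

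NRP2 was held by a pair of IDs whose copy letters were not resolved. The first (ENSDARG00000038446) had 4078, 2652 and 2218 normalised counts in Fgf20aHOM, against 1043, 3006, 1326 and 714 in Cnt. The second (ENSDARG00000096546) had 2862, 2352 and 1744 in Fgf20aHOM, against 886, 3411, 1923 and 715 in Cnt. Cnt 2 was high and Cnt 4 low for both copies, and neither passed the test, with log2 fold changes of 0.97 ± 0.45 and 0.42 ± 0.49.

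Of the 12 class 3 semaphorins, the secreted ligands of neuropilins, 9 had a log2 fold change above 0 and 1, sema3aa, had an unadjusted p under 0.05. sema3aa (ENSDARG00000019235), whose mammalian counterpart is the classic repellent of growth cones, had 4658, 2538 and 2837 normalised counts in Fgf20aHOM, against 1860, 1932, 1573 and 610 in Cnt. The groups did not overlap, with Fgf20aHOM F2 the highest and Cnt 4 the lowest. Its log2 fold change was 1.16 ± 0.39, with an adjusted p of 0.191 (edgeR quasi-likelihood test). A separate ID, named SEMA3A without a copy letter (ENSDARG00000042210), went the other way, with a log2 fold change of -0.62 ± 0.46. It had 647 to 1436 normalised counts in Fgf20aHOM and 828 to 2875 in Cnt, which overlapped.

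The study used sema3fb as a marker of segments r3 and r5, and SEMA3F was held by a pair of IDs that could not be told apart as sema3fa and sema3fb. The more abundant (ENSDARG00000055373) had 4551, 4290 and 3838 normalised counts in Fgf20aHOM, against 3785, 3629, 3648 and 1740 in Cnt. Although the groups were apart, F4 and Cnt 1 nearly met, and the log2 fold change was 0.40 ± 0.28. With DESeq2 size factors in edgeR the groups overlapped, and 10 members lay above Cnt in all libraries, against 11 in the main fit. The other (ENSDARG00000011163) had 1346, 886 and 639 in Fgf20aHOM, against 385, 1307, 350 and 195 in Cnt. Cnt 2 nearly reached F2, and the log2 fold change was 0.77 ± 0.59. Without Cnt 2 the groups were apart and the value was 1.62, with an adjusted p of 0.112 (edgeR quasi-likelihood test). sema3gb (ENSDARG00000013607) had 1201, 1697 and 1094 in Fgf20aHOM, against 801, 721, 1609 and 945 in Cnt, with overlapping groups and a log2 fold change of 0.38 ± 0.33.

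SEMA3A, SEMA3D and SEMA3E were the 3 class 3 genes with a value below 0, at -0.62, -0.44 and -0.65, and Cnt 2 was the highest library for each. The remaining class 3 genes ran from 0.57 for SEMA3G to 1.38 for sema3h, which had at most 23.9 normalised counts in any library. Summed over the class, the levels were 13827 to 17768 in Fgf20aHOM and 6192 to 15781 in Cnt, so the groups overlapped.

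Class 4 semaphorins, ligands of B plexins, had 6 of 8 values below 0 and a median of -0.58. Their summed level was nevertheless similar, at 1.03 times the Cnt mean in Fgf20aHOM. SEMA4B (ENSDARG00000074414) was the only member below Cnt in every library, with 227, 219 and 195 normalised counts in Fgf20aHOM, against 328, 354, 410 and 390 in Cnt. Its means were 214 ± 17 in Fgf20aHOM (SD, n = 3) and 370 ± 37 in Cnt (SD, n = 4), and its log2 fold change was -0.79 ± 0.34, with an adjusted p of 0.301 (edgeR quasi-likelihood test). Its more abundant copy (ENSDARG00000076104) had 4073, 4994 and 4981 in Fgf20aHOM, against 5185, 5930, 6818 and 3956 in Cnt. Only Cnt 4 prevented that copy from lying below Cnt as well, with a log2 fold change of -0.22 ± 0.23.

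The 3 lowest class 4 values, for sema4aa and both SEMA4G IDs, ran from -2.84 to -1.38, but each of these genes had 0 counts in at least 1 library and none passed the test. SEMA4C and sema4e were the class 4 genes above 0, at 0.63 and 0.60. SEMA4C lay above Cnt in all Fgf20aHOM libraries, with 2325 to 2869 normalised counts in Fgf20aHOM and 456 to 2248 in Cnt. Class sums of 9597 to 10978 in Fgf20aHOM and 6573 to 11735 in Cnt overlapped.

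All 3 class 5 semaphorins had values above 0. SEMA5B (ENSDARG00000061471) had 1000, 868 and 706 normalised counts in Fgf20aHOM, against 440, 481, 372 and 543 in Cnt. The groups did not overlap, and the log2 fold change was 0.90 ± 0.29, with an adjusted p of 0.174 (edgeR quasi-likelihood test). Its copy (ENSDARG00000075648) had 596 to 1598 in Fgf20aHOM and 598 to 1206 in Cnt, which overlapped. In the fit on summed IDs, SEMA5B overlapped between genotypes, with a log2 fold change of 0.54. SEMA5A (ENSDARG00000058821), a ligand able to attract or repel axons in mammals, had 577, 287 and 169 in Fgf20aHOM, against 203, 52.2, 44.5 and 80.7 in Cnt. Cnt 1 exceeded F4, and the log2 fold change of 1.86 ± 0.65 had an adjusted p of 0.214 (edgeR quasi-likelihood test). It was 2.54 without Cnt 1 and 1.26 without F2.

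All 6 class 6 semaphorins, ligands of A plexins, also had values above 0, between 0.40 and 1.09. sema6bb (ENSDARG00000061976) had 439, 410 and 470 normalised counts in Fgf20aHOM, against 219, 149, 265 and 194 in Cnt. The groups were well apart, and the log2 fold change was 1.09 ± 0.36, with an adjusted p of 0.185 (edgeR quasi-likelihood test). SEMA6D (ENSDARG00000011533) had 4438, 3002 and 2382 in Fgf20aHOM, against 2291, 2207, 2221 and 1904 in Cnt. F4 lay just above Cnt 1, and the log2 fold change was 0.60 ± 0.25. SEMA6A had 289 to 355 in Fgf20aHOM and 82.7 to 281 in Cnt, again with no overlap. The class sum was 1.57 times as high in Fgf20aHOM, at 4709 to 6773, against 2745 to 3978 in Cnt, and the groups did not overlap. The single class 7 gene, sema7a, had at most 71.0 normalised counts in any library.

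**Figure D3:**
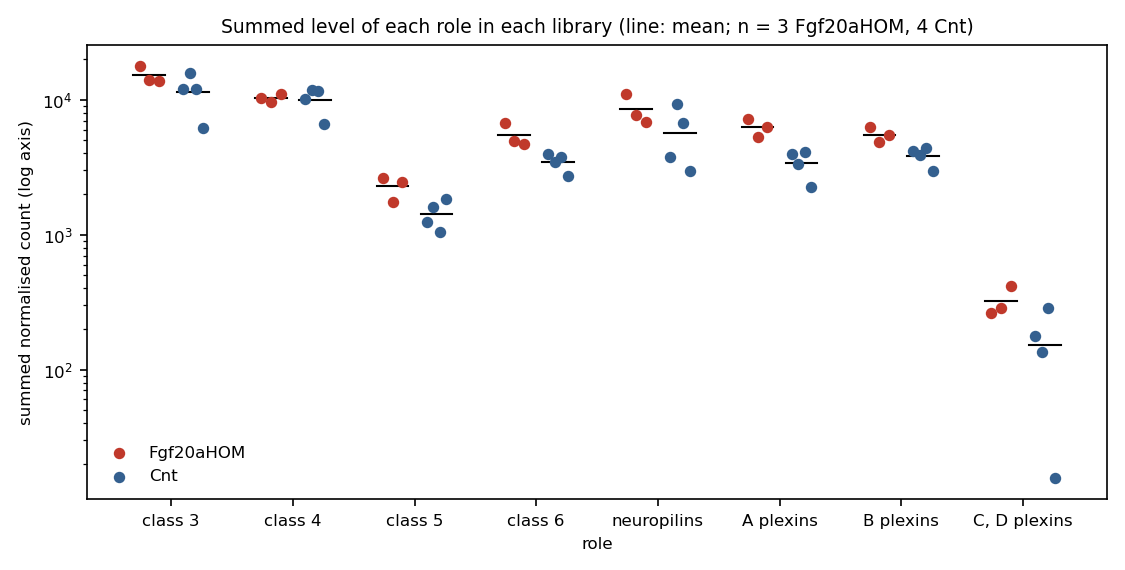
Summed normalised count of each role (y axis, log scale) in each library, Fgf20aHOM left and Cnt right, with the mean as a line; class 7 is not drawn. A plexins, B plexins and class 6 semaphorins do not overlap between genotypes, whereas class 3, class 4, class 5, neuropilins and C and D plexins do.

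The median coefficient of variation of the members was 24.7% in the Fgf20aHOM libraries (n = 3) and 49.0% in the Cnt libraries (n = 4), against 28.9% and 37.2% over all genes tested. All genes thus differed in the same direction. The spread was not tested between genotypes, and it was not computed without Cnt 4. Summed over all 47 IDs, the levels were 62290, 48493 and 50989 in Fgf20aHOM, against 39473, 49263, 43860 and 25568 in Cnt. The sums overlapped through Cnt 2, and Cnt 4 was far below every other library.

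**Figure D4:**
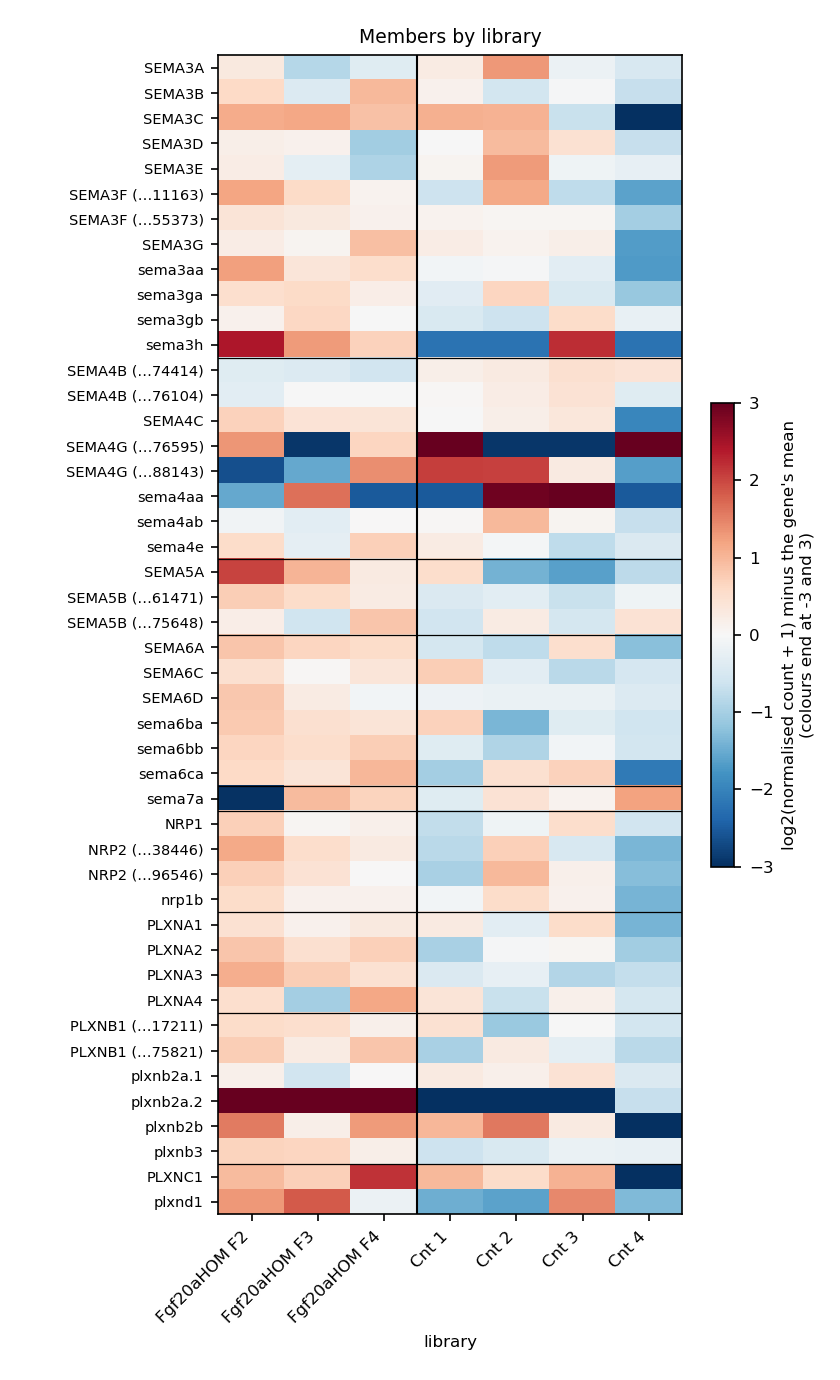
Members (rows, by role) in each library (columns, Fgf20aHOM left of the line), coloured by log2 of the normalised count plus 1, minus the mean of that gene over the 7 libraries; colours end at -3 and 3. The Cnt 4 column is lowest of all libraries for 20 of 46 members (43.5%, against 23.6% of all genes tested), and the Fgf20aHOM F2 column is highest for 17 (37.0%, against 20.6%).

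Other genes of semaphorin signalling were given by 55 IDs, of which 54 were tested. They included collapsin response mediators, MICAL oxidases, small GTPases and their regulators, kinases, adhesion partners and surface receptors such as MET and ERBB2. None was called, none had an adjusted p of at most 0.05 in edgeR, 7 were higher (12.96%) and 3 lower (5.56%) at an unadjusted p under 0.05, against 8.44% and 7.21% of all genes, and the median log2 fold change was 0.30, against -0.05. LIMK2, a kinase that inactivates cofilin, had 1605, 1550 and 2170 normalised counts in Fgf20aHOM, against 2947, 3900, 2891 and 4004 in Cnt, a log2 fold change of -0.95 ± 0.24 with an adjusted p of 0.0967 (edgeR quasi-likelihood test). sh3bp1, a GTPase-activating protein, had 32.9, 11.3 and 21.7 in Fgf20aHOM and 0 in every Cnt library. With no Cnt count, it could pass the filter on low counts only by being high in Fgf20aHOM. It is among the 7 higher genes, and its values are given as a description. DPYSL2, a collapsin response mediator, had 5227 to 7178 in Fgf20aHOM and 2608 to 4434 in Cnt, and GSK3B, a kinase acting on such mediators, had 4277 to 7291 in Fgf20aHOM and 2643 to 3830 in Cnt. These 4 genes had groups that did not overlap, and none passed adjustment. They were named for their low p, so separate groups were likely among them. Of the 54 tested genes of this list, 6 lay above Cnt in all libraries and 2 below, against 9.46% and 8.03% of all genes. The 6 also include sh3bp1, which could enter the list only from that side, so nothing is concluded from this count or from the 7 higher genes. MICAL3 had 747 to 1798 in Fgf20aHOM and 471 to 744 in Cnt, where F4 was only just above Cnt 4. One DPYSL5 ID (ENSDARG00000059311) had 108 to 381 in Fgf20aHOM and 52.3 to 117 in Cnt and overlapped.

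Hindbrain markers were present in both genotypes, with sums of 164879 to 186748 in Fgf20aHOM and 130995 to 166738 in Cnt. SOX3, a progenitor marker, gave the largest part of each sum, so the sum says little about position along the hindbrain. HOXD4, matched to the r7 marker hoxd4a, had 4832, 8552 and 5635 normalised counts in Fgf20aHOM, against 1090, 900, 5296 and 7444 in Cnt. Whether the dissections differed along the axis was not tested. Markers of other cell types differed between libraries, and their part in the differences above was not tested. Of the 10 matched hindbrain markers, 3 (ELAVL3, SOX2 and HOXB3) lay above Cnt in all libraries, against 9.46% of all genes. ELAVL3, a marker of differentiating neurons, had 25328 to 34585 normalised counts in Fgf20aHOM and 15894 to 23851 in Cnt. SOX2, a progenitor gene, had 5399 to 5897 in Fgf20aHOM and 3786 to 4565 in Cnt. The 7 neurogenesis markers summed to 33168 to 39686 in Fgf20aHOM and 24541 to 41167 in Cnt, which overlapped, and ascl1b gave the largest part of each sum. Of these markers, 3 (neurog1, ascl1b and ISL1) had fold changes below 0 and 4 above 0. Among the 4 were ELAVL4, with a log2 fold change of 1.02 ± 0.32, and NEUROD4, with 0.53 ± 0.27. The groups overlapped for all 7. The 8 neural crest markers summed to 10830 to 13061 in Fgf20aHOM and 4915 to 13058 in Cnt. Of these, 2 (FOXD3 and crestin) lay above Cnt in all libraries, against 9.46% of all genes, and 2 had fold changes below 0. The 6 otic vesicle markers summed to 4940 to 6874 in Fgf20aHOM and 9416 to 35500 in Cnt and did not overlap. Of these, 2 (oc90 and stm) lay below Cnt in all libraries, against 8.03% of all genes, and 1 (OTX1) had a fold change above 0. The 6 matched boundary markers summed to 9403 to 13771 in Fgf20aHOM and 11844 to 21386 in Cnt. Vascular markers were 8828 to 11086 in Fgf20aHOM and 4910 to 13687 in Cnt. Cnt 4 was lowest of the Cnt libraries in the boundary, neural crest, vascular and muscle lists. It was not the lowest for cranial ganglia markers (10517, against 8558 in Cnt 3) or head mesenchyme markers (16167, against 15274 in Cnt 1). Nor was it the lowest in the hindbrain and otic vesicle lists, and for neurogenesis markers it was the highest Cnt library, at 41167. Epidermal markers ranged from 173559 to 599010 in Fgf20aHOM and from 73483 to 1575520 in Cnt. Cnt 4 was the highest, and Cnt 1 was close to it at 1471410. Among muscle markers, MYOD1 was near absent, at 0 to 18.4 in Fgf20aHOM and 0 to 13.7 in Cnt. The contractile gene actc1b was higher and uneven, at 719, 315 and 122 in Fgf20aHOM, against 57.3, 97.1, 406 and 35.0 in Cnt, with overlapping groups.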

How the data were processed

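The authors amplified cDNA with NuGEN Ovation V2, made Nextera XT libraries and sequenced both fragment ends for 75 bases. Alignment was by STAR 2.5.1b, run by RSEM 1.2.31, to GRCz10 with Ensembl release 89. The deposited values are gene-level expected counts (estimated counts) that the authors rounded to whole numbers. RSEM divides shared reads between similar genes, so copies are less certain. Use of strand or molecular identifiers is not given in the sources used here.

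Columns of the Fgf20aHOM libraries gave the group but not the sample, so they are called F2, F3 and F4. Symbols came from a table of gene names, which often drops the copy letter. RefSeq (assembly GRCz12tu) served only for gene neighbours.

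Tests used edgeR 4.0.16 in R 4.3.3 (quasi-likelihood F test, TMM, robust, filterByExpr, two-sided, Benjamini-Hochberg over 19589 genes), with genotype as the only term. A normalised count is the count divided by the TMM-scaled library size, multiplied by its mean over libraries. Standard errors were computed from each F statistic. Intervals and floors of 3 counts cover counting error only. Named members were those with an unadjusted p under 0.05, the 2 most abundant of each role (semaphorins other than class 3 counted as one role), sema3gb, SEMA3F and the neuropilins; SEMA4C and SEMA6A, PLXNA4 and the ranges of other members were added after their values were seen. The other genes of semaphorin signalling that are named were the 6 of lowest p. Alternatives were DESeq2 1.42.0, limma-voom (limma 3.58.1), other scalings and filters, 1 surrogate variable (sva 3.50.0), summed IDs and leaving out each library. The members and lists were chosen with earlier results of these data known. The scripts were tested on simulated data.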

Additional observations from a re-analysis of the deposited data

Results flagged for a closer look

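Among the 56 member and role levels examined in the 4 Cnt libraries, 7 had 1 library far from the other 3 (gap to the nearest divided by the range, limit 0.829). About 2.8 would arise by chance if the levels were independent and normally distributed. Role levels contain the members, and sema3h and plxnb2a.2 were near 0 counts in Cnt, so nothing is concluded from the difference between 7 and 2.8. Cnt 4 was low for SEMA3G (ENSDARG00000007560), at 321 normalised counts against 1106 to 1216 in the others (ratio 0.878), and for SEMA3F (ENSDARG00000055373), at 1740 against 3629 to 3785 (ratio 0.924). Cnt 4 was high for plxnb2a.2, at 8.75 against 0 to 0.928 (ratio 0.894). Cnt 2 was high for SEMA3E, at 1089 against 379 to 476 (ratio 0.864), and for SEMA3F (ENSDARG00000011163), at 1307 against 195 to 385 (ratio 0.829). Cnt 3 was high for plxnd1, at 112 against 12.8 to 15.6 (ratio 0.972), and for sema3h, at 20.4 against 0 (ratio 1).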

How the results depend on the processing

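Of 356 values of the 24 named members under 15 alternatives, 352 kept their direction and side of the threshold, 3 passed the study limits only in the alternative, and nrp1b reversed to -0.017 with 1 surrogate variable (the cause was not tested). As the main test called no member, a value was kept when its sign was the same and it was not called. Its size could still move, as for PLXNC1, from 0.98 to 0.019 with 1 surrogate variable. DESeq2 called 2 members. It gave 5 members (main test 2) and 4 other genes of semaphorin signalling (main test 0) an adjusted p of at most 0.05, against 6.64% of all genes. An adjusted p of at most 0.05 with no other limit called 2. Members with an adjusted p of at most 0.05 were 1 with at least 1 CPM in all libraries, a filter that removed plxnb2a.2 and left 34 members, and 1 with a surrogate variable. Members lower at an unadjusted p under 0.05 (main test 1) were 0 with library totals, 0 with no filter, 0 with at least 1 CPM and 0 with IDs of 1 name summed, and 2 with a surrogate variable; with summed IDs, 0 lay below Cnt in all libraries. Leaving out each library in turn gave 0 to 1 called, 0 to 1 with an adjusted p of at most 0.05, 0 to 0 lower at an unadjusted p under 0.05, 1 to 3 below Cnt and 11 to 19 above Cnt in all libraries, the 19 without Fgf20aHOM F3. Without Cnt 1, Cnt 3, Fgf20aHOM F2, F3 or F4 in turn, 0 members had an adjusted p of at most 0.05, so both PLXNA3 and plxnb2a.2 lost that call. The median log2 fold change of all genes was -0.05 in the main fit, -0.06 with DESeq2 size factors and 0.03 with library totals, and 35 members stayed above 0 in each. No paired analysis was possible because the replicate numbers in the labels could not be tied to the Fgf20aHOM columns, whose own numbers are not those of the titles, and each library is a separate embryo with no shared unit named. sema3h, SEMA4G, sema4aa, plxnb2a.2 and plxnb2a.3 were at 0 counts in some libraries of similar depth and not in others. PLXNC1, plxnb2b and SEMA3C were at 0 counts in Cnt 4 only.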
